A study of Sus scrofa with 12 samples.

Results

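Symbols of iron handling were looked up in the gene counts of longissimus dorsi, the loin muscle, of Iberian pigs. The 10 symbols were TFRC, TF, FTH1, FTL, SLC40A1, SLC11A2, NCOA4, IREB2, ACO1 and SLC25A37. A gene was taken when its pig Ensembl identifier carried one of them, and 8 of the 25880 genes listed did so. FTH1 and SLC25A37 had no row under their symbol and were not analysed here. The study set 6 pigs with a high breeding value for muscle myoglobin (High MB group) against 6 with a low one (Low MB group). All 12 were castrated males of a closed commercial Iberian population, fattened free-range on acorns and grass and sampled after slaughter as adults, with 1 RNA-seq library of the muscle per pig. No treatment separates the groups. Their muscle held 2.48 mg/g of myoglobin ± 0.0657 (SD, n = 6, range 2.376 to 2.559) if of the High MB group, against 1.39 mg/g ± 0.147 (SD, n = 6, range 1.226 to 1.58) for the Low MB pigs. The groups differ in breeding value as well as in measured content, and the labels name no genotype.

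Myoglobin, the oxygen-binding protein that colours meat, holds a heme iron, so a muscle fibre must obtain iron to build it. Transferrin carries iron in plasma, and the transferrin receptor brings it into cells. The divalent metal transporter then moves it across the endosomal membrane. Iron that is not used is stored in ferritin, a shell of heavy and light chains, and the cargo receptor NCOA4 delivers ferritin to lysosomes for breakdown. Ferroportin is the exporter of iron from cells. Iron regulatory proteins, encoded by ACO1 and IREB2, bind hairpins called iron responsive elements (IREs) when iron is scarce. Bound at the 5′ end of an mRNA they block its translation, and bound at the 3′ end of the transferrin receptor mRNA they protect it from decay. Much of this regulation therefore acts on translation, which RNA counts do not measure.

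The hairpins were looked for in RefSeq gene models of the Sscrofa11.1 build, the build of the counts, because they are the sequence that ties these genes to iron sensing. The letters searched were CNNNNNCAGTGN, with 5 pairs between the bases on either side of the loop (G with T allowed) and at least 3 further pairs below the bulged C, on the transcribed strand only. Of 19258 genes with an untranslated region in their model, 11 held a match there (0.0571%). FTL and SLC40A1 were 2 of these, both in the 5′ untranslated region. FTH1 and ALAS2 also matched, and FTH1 is printed for comparison although its counts were not analysed here. No match lay in the models of NCOA4, IREB2, ACO1 or SLC11A2. This says only that no site there met the rule for letters and pairs together, and hairpins with other pairing were not searched for. The TFRC model held none, but it ends at base 133997554 of chromosome 13, and 4 matches lay in the 5000 bases after that end. Of 20614 such windows in the genome 1 held as many, that of TFRC itself (0.00485%). In the sites below, written 5′ to 3′, capitals mark the loop CAGTG and the base after it.
FTL, chr6:54231194-54231222, plus strand: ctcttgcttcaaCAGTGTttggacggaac
FTH1, chr2:9535175-9535203, plus strand: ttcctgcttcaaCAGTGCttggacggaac
SLC40A1, chr15:94161660-94161688, minus strand: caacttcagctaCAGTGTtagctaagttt
TFRC site 1, chr13:133998466-133998494, plus strand: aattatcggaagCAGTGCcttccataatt
TFRC site 2, chr13:133998876-133998904, plus strand: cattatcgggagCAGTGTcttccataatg
TFRC site 3, chr13:133998941-133998969, plus strand: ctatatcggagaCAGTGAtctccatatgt
TFRC site 4, chr13:133998988-133999016, plus strand: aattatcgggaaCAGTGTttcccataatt

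Gene counts summed to 38914271 to 91318334 per library. The libraries fell into 5 deep ones with over 50000000 gene counts (2 High MB, 3 Low MB) and 7 standard ones (4 High MB, 3 Low MB). Levels are given as CPM, counts scaled to an equal library size, after the TMM correction for library composition. Genes of skeletal muscle fibres were abundant, with ACTA1, skeletal actin, at mean levels of 40410 CPM in High MB and 47820 CPM in Low MB. Of the liver markers, liver being the main source of transferrin, SERPINA1 had 0 counts in every pig, ALB had mean levels of 0.57 and 0.494 CPM, and APOA1 was the highest at 9.71 and 7.56 CPM.

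None of the iron genes passed the test between the groups. A gene was called when its edgeR quasi-likelihood p, adjusted by Benjamini-Hochberg over 13373 genes, was under 0.1 and its log2 fold change lay beyond 0.58 in either direction. Over all genes 0% were called by edgeR, with 1132 at an unadjusted p under 0.05, and DESeq2 called 29, none of them an iron gene. TF failed the filter on low counts, so 7 of the 8 genes were tested. At an unadjusted p under 0.05, 1 of the 7 was higher in High MB (SLC40A1), against 5.33% of all genes, and 1 was lower (NCOA4), against 3.13%. In either direction 8.46% of all genes reached that level. No member had groups that did not overlap, whereas 0.232% of all genes had every High MB pig above every Low MB pig and 0.194% the reverse. The median log2 fold change of the 7 was -0.21, with 2 above 0 and 5 below, beside -0.016 over all genes.

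**Figure D1:**
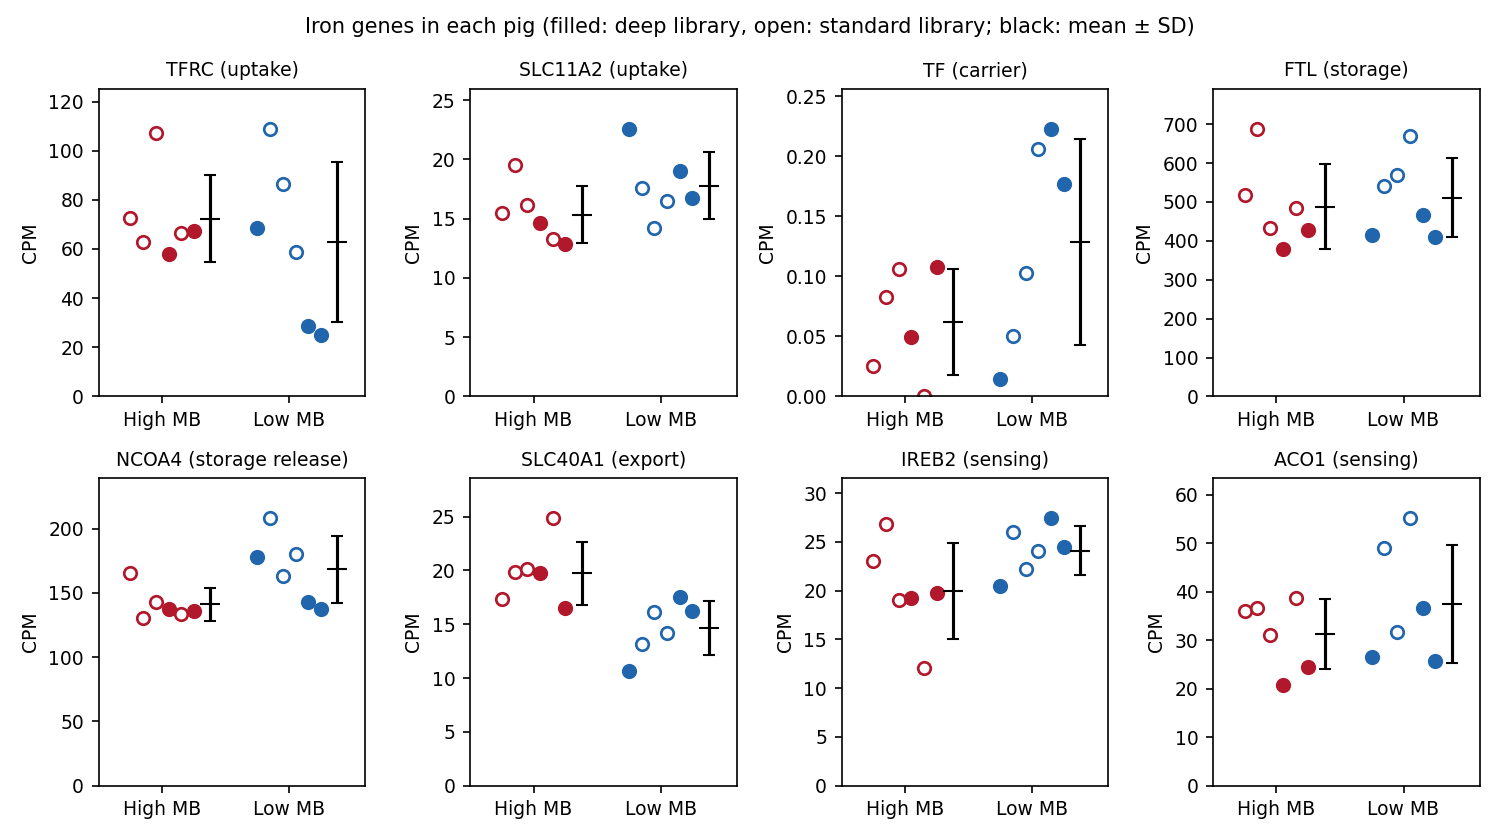
Level of each of the 8 iron genes in each pig (vertical axis, CPM from 0) by group, with filled points for deep libraries, open points for standard ones, and black bars for the mean ± SD of 6 pigs. SLC40A1 shows 4 High MB pigs above every Low MB pig, while TFRC spreads from 25.1 to 108.8 CPM within the Low MB group alone.

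Of the 7 iron genes tested, TFRC varied most between pigs. TFRC (ENSSSCG00000011848, chr13:133976765-133997554) encodes the transferrin receptor, and its counts ran from 1558 to 6246. Its levels in the High MB pigs ran from 57.98 CPM through a median of 66.75 to 107.4. Those in the Low MB pigs ran from 25.09 through 63.64 to 108.8. The groups overlapped, with Low MB pigs 5 and 6, at 28.75 and 25.09 CPM, below every other pig, and both of those libraries were deep. The log2 fold change of High MB over Low MB was 0.21 (SE 0.31, 95% interval -0.45 to 0.86, adjusted p = 0.88 in edgeR). The exact two-sided permutation test over all regroupings of 6 and 6 pigs gave p = 0.357. The biological coefficient of variation of TFRC was 0.375, at the 78.9th percentile of the genes tested. Within the depth classes the sign changed, with a log2 fold change of 0.66 in the deep libraries (95% interval -0.30 to 1.62) and of -0.12 in the standard libraries (-0.69 to 0.45). The part of depth in this was not tested. Without Low MB pig 6 the log2 fold change was 0.042, without Low MB pig 5 it was 0.058, without High MB pig 3 it was 0.060 and without Low MB pig 2 it was 0.45.

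TF, the symbol of transferrin (ENSSSCG00000011640), had 0 to 14 counts per library. High MB pigs lay between 0 and 0.107 CPM and Low MB pigs between 0.0147 and 0.223 CPM, with 1 High MB pig at 0 counts, which allows up to 3 counts in that library. RefSeq places the symbol TF at neighbouring loci on chromosome 13, transferrin and the porcine inhibitor of carbonic anhydrase, and which of them the identifier counts was not settled here.

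SLC11A2 (ENSSSCG00000034039, on an unplaced scaffold of the build) encodes the divalent metal transporter. Its levels in High MB pigs ran from 12.87 CPM through a median of 15.08 to 19.5, and in Low MB pigs from 14.19 through 17.15 to 22.55. The groups overlapped, and the highest pig was Low MB pig 1. High MB over Low MB the log2 fold change was -0.21 (SE 0.13, 95% interval -0.50 to 0.07, adjusted p = 0.655 in edgeR, exact permutation p = 0.132). In the deep libraries it was -0.46 (95% interval -0.89 to -0.022), with High MB pigs at 12.87 and 14.67 CPM and Low MB pigs at 16.72 to 22.55. In the standard libraries it was 0.007 (95% interval -0.38 to 0.39), with a mean level of 16.11 CPM in High MB and 16.1 CPM in Low MB. Without Low MB pig 1 the value over the other 11 pigs was -0.13.

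Ferritin light chain was the most abundant of the transcripts and showed no measurable difference between the groups. FTL (ENSSSCG00000003153, chr6:54231121-54232756) had levels of 378.3 CPM, a median of 459 and 687.4 in the High MB group. In the Low MB group they were 408.8, a median of 503.5 and 669.8. The groups overlapped over nearly their whole range, and the highest levels were those of Low MB pig 4 and High MB pig 2. The log2 fold change was -0.07 (SE 0.16, 95% interval -0.42 to 0.29, adjusted p = 0.934 in edgeR, exact permutation p = 0.671), an interval that leaves room for a modest difference either way. Leaving out each pig in turn moved it between -0.17, without High MB pig 2, and 0.041, without Low MB pig 4. FTL levels also followed depth, since the 5 deep libraries lay between 378.3 and 466.4 CPM and the 7 standard ones between 432.6 and 687.4 CPM. Ferritin genes have processed copies in mammalian genomes, so how reads shared with such copies were counted makes this level uncertain.

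NCOA4 (ENSSSCG00000010399, chr14:90505614-90531302), the receptor for ferritin breakdown, was measured at 130.8 CPM, a median of 136.9 and 165.6 in High MB pigs. In Low MB pigs it was at 137.3, a median of 170.7 and 208. Pig by pig, the High MB levels were 165.6, 130.8, 143, 137.6, 133.4 and 136.2 CPM for pigs 1 to 6, and the Low MB levels were 177.9, 208, 163.5, 180.1, 143.2 and 137.3 CPM. The High MB group was tight apart from pig 1, with 3 of its 6 pigs below every Low MB pig, and the deep Low MB libraries 5 and 6 lay among the High MB pigs. The log2 fold change was -0.25 (SE 0.12, 95% interval -0.50 to -0.01) with p = 0.0449 and adjusted p = 0.578 in edgeR, and the exact permutation test gave p = 0.039. It was -0.35 in the standard libraries (95% interval -0.72 to 0.01) and -0.12 in the deep ones (-0.51 to 0.27). The unadjusted p was under 0.05 in 5 of 23 other ways of fitting, and without Low MB pig 2 the value was -0.17 (95% interval -0.41 to 0.073).

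Ferroportin had the smallest p of the iron genes. SLC40A1 (ENSSSCG00000027157, chr15:94140635-94161793) was measured at 17.32, 19.85, 20.11, 19.75, 24.83 and 16.49 CPM in High MB pigs 1 to 6. In Low MB pigs 1 to 6 it was at 10.62, 13.2, 16.16, 14.18, 17.5 and 16.27 CPM. Of the High MB pigs 4 exceeded every Low MB pig and 5 of the 6 Low MB pigs lay below every High MB pig, so the overlap came from High MB pigs 1 and 6 and Low MB pig 5. The log2 fold change was 0.43 (SE 0.14, 95% interval 0.14 to 0.72), a 1.35-fold difference. Its p was 0.00704 and its adjusted p 0.563 in edgeR, and the exact permutation test gave p = 0.00649, where 6 against 6 pigs cannot go below 0.00217. The mean was higher in High MB in both depth classes, on the log2 scale by 0.51 in the standard libraries (95% interval 0.13 to 0.89) and by 0.33 in the deep ones (-0.24 to 0.90). Leaving out each pig in turn gave log2 fold changes of 0.35 to 0.49 with unadjusted p from 0.0041 to 0.0207 in edgeR. The smallest adjusted p over all 23 other ways of fitting was 0.26, in DESeq2.

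SLC40A1 is strongly expressed by macrophages, which recycle iron from red cells, and several markers of that cell type also had higher means in High MB, though none was called. The summed level of the macrophage list was 66.2 to 151.2 CPM in High MB pigs and 31.8 to 77.2 CPM in Low MB pigs, and 7 of its 9 tested genes, out of 10, had an unadjusted p under 0.05 and a higher mean in High MB. Over all genes tested 5.33% did so, and 8.46% had such a p in either direction. These shares stand beside the counts of the other lists below as well. The upper end of the macrophage sum, 151.2 CPM, was that of High MB pig 2. C1QA, a complement subunit, was at 11.14 CPM against 5.85 CPM (log2 fold change 0.93, adjusted p = 0.563 in edgeR, exact permutation p = 0.00649), and CD163, the hemoglobin scavenger receptor, at 10.7 against 5.04 CPM. Without High MB pig 2 the log2 fold change of CD163 was 0.55, against 1.09 over all pigs. MARCO was under 1 CPM in all pigs. The erythroid list summed to 72.4 to 154.8 CPM against 43.3 to 92 CPM, and 2 of its 4 tested genes had p under 0.05 and a higher mean in High MB. Most of that sum was HBB, beta globin, at mean levels of 97.4 CPM against 56.5 CPM, while EPB42 was at 8.43 against 8.55 CPM and 4 of the 7 genes with a row were under 1 CPM in all pigs. The fibroblast list summed to 645.6 to 1146 CPM against 340.2 to 841.2 CPM, with p under 0.05 for 4 of 7 genes, and the endothelial list to 114.1 to 156.6 against 70.1 to 174.9 CPM, with none of 4. The slow fibre list summed to 6433 to 12550 CPM against 4842 to 8404 CPM, with p under 0.05 for 5 of 6 genes tested, and the adipocyte list to 107.5 to 360.7 against 96.9 to 265.8 CPM, with 2 of 6. Beside NCOA4, which had the lower mean in High MB, the skeletal muscle fibre list summed to 41500 to 93020 CPM against 70100 to 122400 CPM, with p under 0.05 for none of 5 genes. In bulk muscle, fewer cells of a type and less RNA per cell cannot be told apart, and the part of these cell types in the SLC40A1 and NCOA4 values was not tested.

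The genes of the iron regulatory proteins had lower mean levels in High MB pigs, within the spread between pigs. IREB2 (ENSSSCG00000001756, chr7:47481539-47529199) encodes the protein that is degraded when iron is plentiful. Its levels were 12.06 CPM, a median of 19.47 and 26.85 in High MB and 20.49, a median of 24.26 and 27.42 in Low MB. Of the High MB pigs 4 lay below every Low MB pig, pig 5 lowest, while High MB pig 2 stood among the highest. High MB over Low MB the log2 fold change was -0.27 (SE 0.16, 95% interval -0.60 to 0.06, adjusted p = 0.639 in edgeR, exact permutation p = 0.0779). Without High MB pig 2 it was -0.35 (95% interval -0.67 to -0.041). Without High MB pig 5, the lowest, it was -0.16 (95% interval -0.42 to 0.10).

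ACO1 (ENSSSCG00000023807, chr10:33937833-34001895) encodes the protein that is a cytosolic aconitase when it holds an iron-sulfur cluster and binds IREs when it does not. Its levels were 20.83 CPM, a median of 33.57 and 38.72 in High MB and 25.61, a median of 34.13 and 55.13 in Low MB. The groups overlapped, with Low MB pigs 4 and 2 highest. The log2 fold change was -0.26 (SE 0.21, 95% interval -0.71 to 0.19, adjusted p = 0.748 in edgeR, exact permutation p = 0.34). Deep libraries were lower than standard ones in both groups, with means of 22.6 against 35.6 CPM in High MB and 29.6 against 45.3 CPM in Low MB. With the depth class as a covariate the value was -0.36 (95% interval -0.66 to -0.059, adjusted p = 0.474 in edgeR). Without Low MB pig 4 it was -0.10, without Low MB pig 2 it was -0.16 and without High MB pig 4 it was -0.16.

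**Figure D2:**
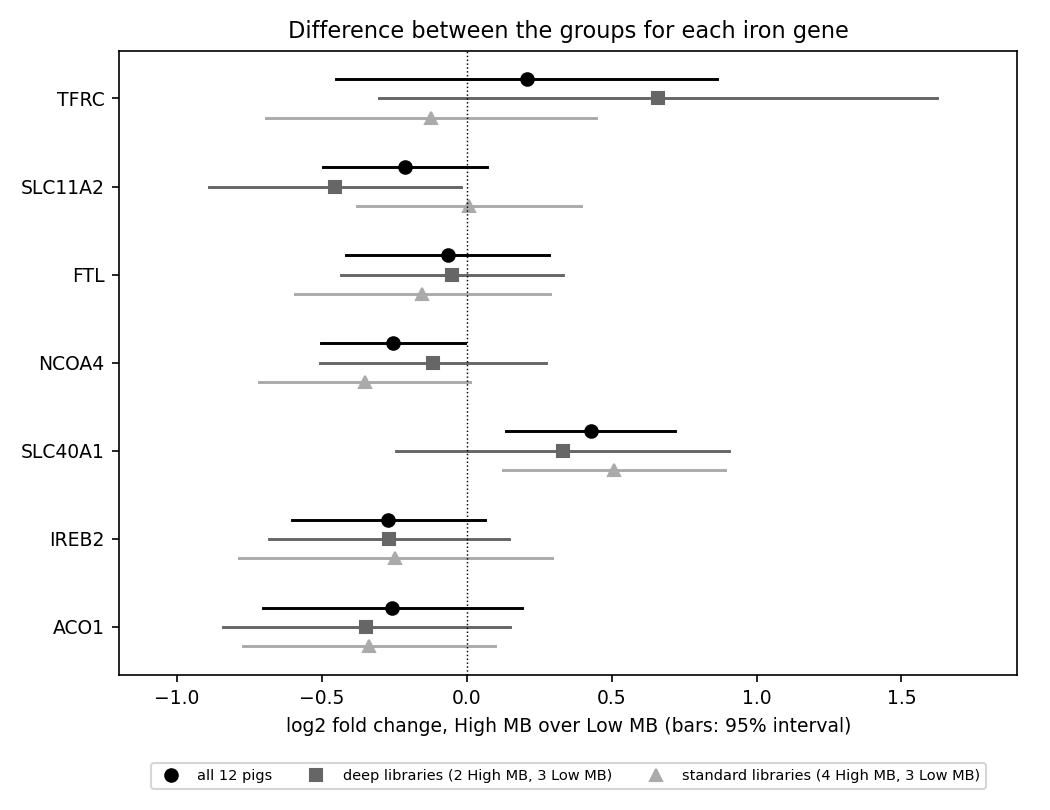
Log2 fold change of High MB over Low MB (horizontal axis) with its 95% interval for the 7 iron genes tested, from all 12 pigs (black circles), the 5 deep libraries (grey squares) and the 7 standard libraries (light triangles). SLC40A1 lies above 0 in all of them, from 0.33 to 0.51, while TFRC and SLC11A2 change sign between the depth classes.

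Per kilobase of exon in the RefSeq models, the levels over the 12 pigs fell in a wide order. FTL stood first at 535.1 CPM per kb ± 108.1 (SD, n = 12), far above TFRC at 28.4 ± 10.7 and NCOA4 at 25.7 ± 4.02. TFRC and NCOA4 did not separate, since TFRC was the higher in 8 of 12 pigs, and the TFRC model lacks the region that holds its IREs, so its level per kb is uncertain. ACO1 followed at 9.54 CPM per kb ± 2.79, and each of these steps apart from that between TFRC and NCOA4 was seen in 12 of 12 pigs. IREB2, at 6.35 CPM per kb ± 1.24, was below ACO1 in 12 of 12 pigs and above SLC40A1, at 4.91 ± 1.06, in 9. SLC11A2 was last at 2.29 CPM per kb ± 0.388, below SLC40A1 in 11 pigs. Lengths came from RefSeq, while the annotation behind the counts is not given in the sources used here.

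The ratio of FTL to TFRC, storage over uptake, was taken here from RNA levels, which do not measure translation and so do not give iron status. In CPM it was 7.14, 10.9, 4.03, 6.53, 7.32 and 6.37 in High MB pigs 1 to 6. In Low MB pigs 1 to 6 it was 6.03, 4.97, 6.57, 11.4, 16.2 and 16.3. The Low MB group held the 3 highest ratios, those of pigs 4, 5 and 6, and its other 3 pigs lay within the High MB range. Low MB pigs 5 and 6 had the lowest TFRC levels, 28.75 and 25.09 CPM, and both libraries were deep. High MB pig 2, at 10.9, was close to Low MB pig 4, at 11.4.

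The iron genes were then compared with each other over the 12 pigs in log2 CPM, giving 21 pairs with Pearson r from -0.76 to 0.79, of which 13 were above 0. After Benjamini-Hochberg adjustment over the 21 pairs, 2 had an adjusted Pearson p under 0.05 in a permutation test of 100000 resamples. FTL and ACO1 varied together, with r = 0.79 (p = 0.00218, adjusted p = 0.0323) and Spearman rho = 0.83 (p = 0.00151, adjusted p = 0.0317). Pearson r was 0.80 without the pigs farthest from the FTL median (Low MB pig 4 and High MB pig 2), 0.75 within High MB and 0.84 within Low MB (n = 6 each). Both genes were lower in deep libraries, and within the depth classes r was 0.48 over the 7 standard libraries and 0.93 over the 5 deep ones, given as a description since so few pigs fix neither closely. SLC40A1 and NCOA4 varied in opposite directions, with r = -0.76 (permutation p = 0.00308, adjusted p = 0.0323) and rho = -0.74 (p = 0.0079, adjusted p = 0.083). Pearson r was -0.81 without Low MB pig 1 and High MB pig 5, -0.46 within High MB, -0.68 within Low MB, -0.93 within the 7 standard libraries and -0.92 within the 5 deep ones. The group means of this pair lie in opposite directions, and both within-group values were nearer to 0 than the pooled one.

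**Figure D3:**
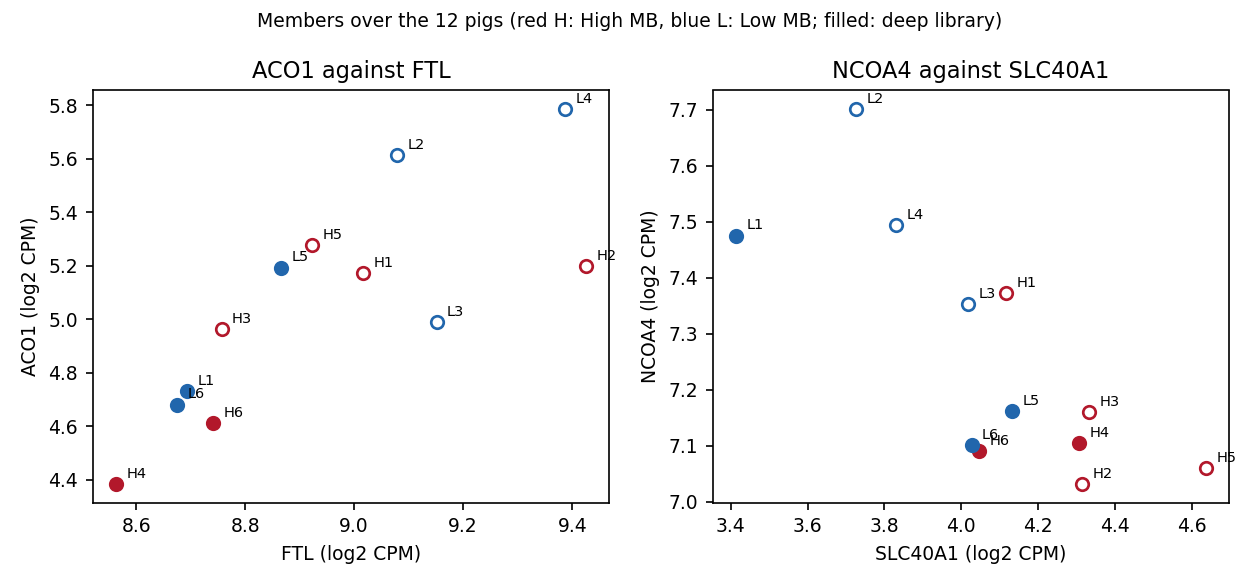
Log2 CPM of ACO1 against FTL (left) and of NCOA4 against SLC40A1 (right), with 1 point per pig, H for High MB and L for Low MB, filled for deep libraries. FTL and ACO1 rise together (r = 0.79) with 4 of the deep libraries at the lower left, and NCOA4 declines as SLC40A1 increases (r = -0.76).

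For each iron gene the genes with the closest pattern over the 12 pigs were found among those with a symbol, as a description. They are the highest of many r values, so the choice alone makes r high. SLC40A1 was most like TRERF1 (r = 0.94), DPYSL2 (0.91) and ERG (0.91), the last a transcription factor of endothelial cells. These genes also had higher means in High MB, with log2 fold changes of 0.56, 0.40 and 0.41, so the group difference enters their r. NCOA4 was most like KPNA3 (0.94), BAG6 (0.93) and RANBP6 (0.92), of which KPNA3 is an importin that carries proteins into the nucleus. Like NCOA4, they had lower means in High MB, with log2 fold changes of -0.33, -0.31 and -0.22. FTL was most like SEC23B (0.95), a coat protein of secretory vesicles, PUS3 (0.95) and KBTBD7 (0.95). TFRC was most like MRPS18B (0.90), a protein of the mitochondrial ribosome, NUP210 (0.88), a nuclear pore protein, and TIMM22 (0.88), a mitochondrial import channel. IREB2 was most like UBR1 (0.93), a ubiquitin ligase, STAG2 (0.92) and CCDC186 (0.92). ACO1 was most like WDFY2 (0.91), NR4A3 (0.88) and FITM2 (0.86), and SLC11A2 most like ANXA6 (0.89), STAU1 (0.86) and ADARB2 (0.85).

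Myoglobin content differs between the groups by selection, so its relation to the iron genes was examined within each group of 6. Over 14 relations (7 genes in 2 groups) Pearson r ran from -0.56 to 0.69, with 7 above 0 and 7 below, and rho from -0.66 to 0.54. The smallest exact permutation p was 0.149, for SLC40A1 in the High MB group (r = 0.69, rho = 0.31, r = 0.74 without the 2 pigs farthest from the median), with an adjusted p of 0.943 over the 14. The smallest exact p for rho was 0.175, for IREB2 in the Low MB group (rho = -0.66, r = -0.56), with an adjusted p of 1. Leaving out the 2 pigs farthest from the median, so that 4 remained, moved other relations widely, with r going from 0.072 to 0.93 for NCOA4 in Low MB, from 0.096 to 0.79 for ACO1 in High MB and from 0.072 to -0.74 for SLC11A2 in High MB. With 6 pigs per group, none of these relations could be told from no relation.

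A further 62 symbols of iron and heme handling gave 55 genes with a row and 45 past the filter, of which none was called, against 0% of all genes. ALAS2 and CD163 had an unadjusted p under 0.05, both with a higher mean in High MB, and none had a lower mean at that level. These 2 of 45 stand beside 5.33% of all genes with a higher mean at that level and 3.13% with a lower one. The median log2 fold change of the 45 was 0.05, with 27 of 45 above 0, beside -0.016 and 46.9% above 0 over all genes. ALAS2, the erythroid form of the first enzyme of heme synthesis and an IRE mRNA itself, was at 1.96 CPM in High MB and 1.19 CPM in Low MB (log2 fold change 0.71, exact permutation p = 0.0217). It is also on the erythroid list, where it and HBB are the 2 genes with p under 0.05. CD163 had a log2 fold change of 1.09 (exact permutation p = 0.0736), and High MB pig 2 alone had 27.8 CPM, against 2.56 to 10.2 CPM in the other pigs. Without that pig the log2 fold change of CD163 was 0.55.

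All 6 tested genes of iron import and reduction had log2 fold changes above 0, with a median of 0.37 and none with p under 0.05. Without High MB pig 2, all 6 were still above 0 and the median was 0.21. SLC39A14, a transporter of iron not bound to transferrin, was the most abundant at 131.7 CPM in High MB and 114.7 CPM in Low MB (log2 fold change 0.20, exact permutation p = 0.141). Its relative SLC39A8 was at 2.95 against 2.09 CPM (log2 fold change 0.50, exact permutation p = 0.0736). Without High MB pig 2, which had the highest level of each, the log2 fold changes were 0.13 for SLC39A14 and 0.39 for SLC39A8. The ferric reductases CYBRD1 and STEAP3, of which the latter serves the transferrin cycle, had log2 fold changes of 0.21 (exact permutation p = 0.271) and 0.54 (p = 0.294). High MB pig 2 had the highest level of both reductases, at 16.05 CPM of STEAP3 against 2.74 to 7.31 CPM in the other pigs, and without it the log2 fold changes were 0.13 for CYBRD1 and 0.14 for STEAP3. TFR2, the transferrin receptor of liver, was among 4 genes of the list under 1 CPM in all pigs.

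Of the hepcidin axis, HAMP, which encodes hepcidin, the hormone that removes ferroportin from membranes, had 0 counts in every pig, as did HEPHL1. HJV, the hemojuvelin of muscle and liver, was at 233.3 CPM in High MB and 238.4 CPM in Low MB (log2 fold change -0.03, adjusted p = 0.985 in edgeR, and 0.14 without High MB pig 2). BMP6, an inducer of hepcidin, was at 10.4 against 8.33 CPM (log2 fold change 0.33, exact permutation p = 0.0628). CP, ceruloplasmin, which oxidises exported iron, was at 5.82 against 6.82 CPM (log2 fold change -0.23, exact permutation p = 0.177), and the list had 3 of 5 tested genes above 0, or 4 of 5 without High MB pig 2.

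The 5 genes of iron chaperoning and of the degradation of iron regulatory proteins were all slightly below 0, with a median of -0.13 (-0.079 without High MB pig 2) and none with p under 0.05. They include FBXL5, the iron-sensing subunit of the ligase that degrades IREB2 protein, at 47 CPM in High MB and 48.2 CPM in Low MB (log2 fold change -0.03, exact permutation p = 0.924, and 0.11 without Low MB pig 2). Mitochondrial iron and iron-sulfur cluster assembly had 8 of 15 tested genes above 0, 7 below and a median of 0.005. Without High MB pig 2 it had 9 of 15 above 0 and a median of 0.074. SLC25A28, a mitochondrial iron importer, had the smallest p of that list, at 21.2 against 18.4 CPM (log2 fold change 0.20, adjusted p = 0.606 in edgeR, exact permutation p = 0.0325). Heme uptake, export and breakdown had 6 of 9 genes above 0 and a median of 0.14, with HMOX2, the constitutive heme oxygenase, at 144.9 and 147.9 CPM. HMOX1, the inducible form, had a log2 fold change of 0.69, but High MB pig 2 had 39.6 CPM against 4.98 to 11 CPM in the other pigs, and without it the value was -0.12. Of the other IRE mRNAs 4 of 5 were above 0.

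**Figure D4:**
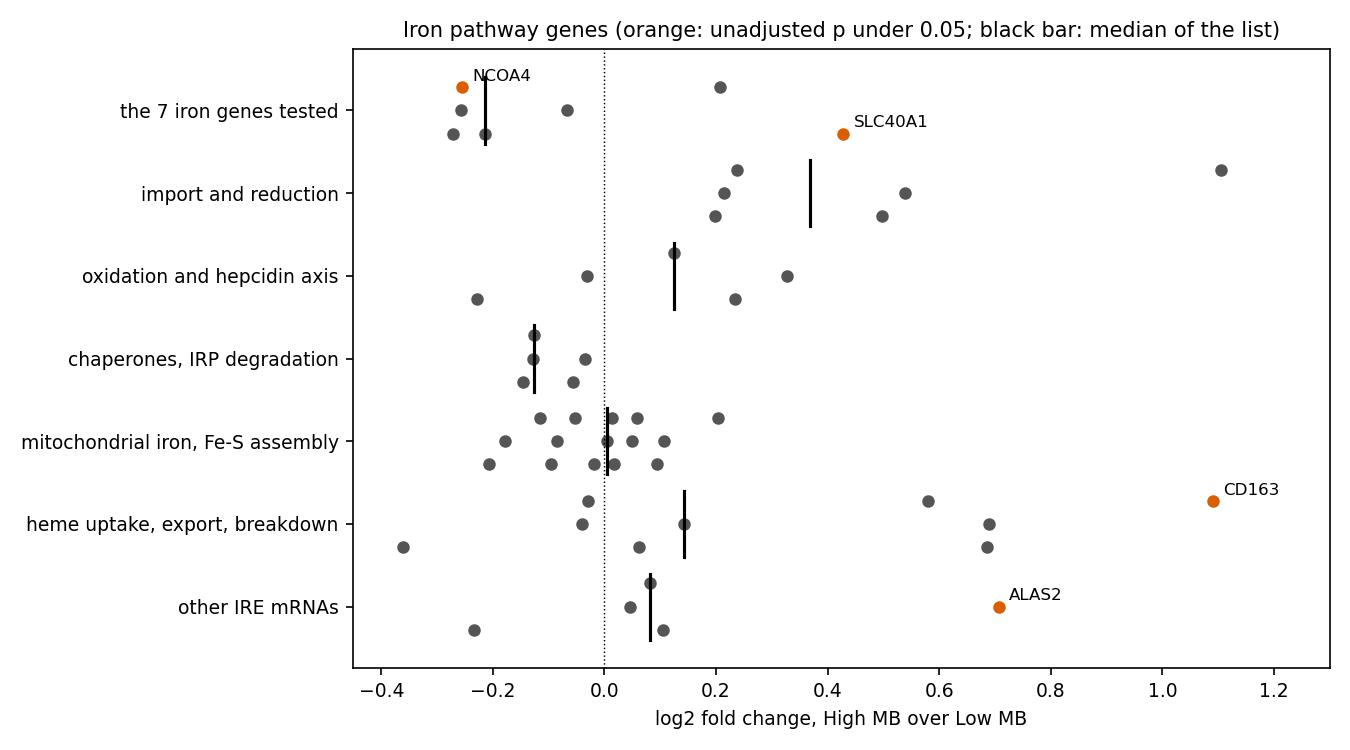
Log2 fold change of High MB over Low MB (horizontal axis) for the 7 iron genes and the genes of the 6 pathway lists, with 1 point per tested gene, orange for an unadjusted p under 0.05 and a black bar at the median of each list. Orange points are SLC40A1, NCOA4, CD163 and ALAS2, and the medians lie between -0.21 for the 7 iron genes and 0.37 for import and reduction.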

How the data were processed

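RNA-seq of longissimus dorsi was analysed in 12 pigs. Per the labels and the paper's methods, the authors used Trim Galore on paired reads, HISAT2 for alignment to Sscrofa11.1, and HTSeq for the raw gene counts they deposited. The annotation release and the strand and overlap settings are not given in the sources used here. Transcript counts were not used. Pigs were grouped by their labels. Ensembl identifiers were matched to symbols for 14857 of 25880 genes. The htseq-count summary lines stayed out of library sizes, and 47.0 to 48.2% of uniquely aligned reads were assigned to genes.

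Genes past filterByExpr (13373) were fitted with edgeR 4.0.16 (TMM, quasi-likelihood test, R 4.3.3), and log2 CPM used a prior count of 2. Calls needed an adjusted p under 0.1 with a log2 fold change beyond 0.58 in size. In simulated counts for 13373 genes and 6 against 6 pigs, edgeR called 77 of 100 genes changed 2-fold and 98 of 100 changed 4-fold. False calls numbered 19 for edgeR and 40 for DESeq2. Smaller changes were not simulated, and the largest log2 fold change of an iron gene, 0.43 for SLC40A1, lies under the limit of 0.58. Alternatives were DESeq2 1.42.0, other size factors and filters, depth class, a replicate block and left-out pigs. The members and lists were chosen with earlier results of these data known. The text names all members, some genes of the lists and the 3 genes most like each member. Gene models and sequences came from RefSeq (Sscrofa11.1). The result of 1 list gene is not reported here.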

Additional observations from a re-analysis of the deposited data

Results flagged for a closer look

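TFRC in High MB pig 3 stood apart from the other High MB pigs. Its level was 107.4 CPM, where the other 5 lay between 57.98 and 72.5 CPM. On the log2 scale its gap to the nearest pig was 0.637 of the range of the group, above Dixon's 95% critical value for 6 samples. This was 1 of 14 groups of 6 examined, and chance flags about 1 in 20.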

How the results depend on the processing

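No iron gene was called in the main fit or any of the alternatives. Over all genes, DESeq2 called 29 and the deep libraries alone 1, where edgeR on all pigs called 0 (1132 genes at an unadjusted p under 0.05). Direction held in 158 of 161 alternatives of the 7 genes, and the 3 reversals were TFRC at -0.12 and SLC11A2 at 0.007 in the standard libraries and FTL at 0.041 without Low MB pig 4 (log2 fold changes, where leaving out each pig gave FTL -0.17 to 0.041). The cause was not tested. Unadjusted p under 0.05, found for 2 iron genes, was found for 1 to 3 without single pigs and 1 to 3 in the other settings. For the pathway genes, also 2, these ranges were 1 to 4 and 0 to 5. SLC40A1 held in 22 of 23 settings and NCOA4 in 5. NCOA4 lost it under RLE and upper quartile size factors and in DESeq2 (log2 fold changes of -0.25, -0.20 and -0.25). Leaving out High MB pig 2 and Low MB pig 4 together was chosen after seeing the data, since these pigs stood apart in FTL. It gave 0.44 for SLC40A1 (adjusted p = 0.585 in edgeR) and -0.19 for NCOA4 (adjusted p = 0.683). The individual numbers did not pair the pigs, with correlations of deviations between same-numbered pigs of -0.21 to 0.14 and 0 of 6 High MB pigs closest to their own number. The replicate block gave 0 calls, 957 genes and 1 iron gene with p under 0.05, SLC40A1 at 0.43 (adjusted p = 0.636 in edgeR). Depth limits TF, whose counts did not exceed 14, and the 10 pathway genes that failed the filter on low counts. Leaving out single pigs for the pathway genes was also chosen after seeing the data.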
